A study of Mus musculus with 21 samples.

Results

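APOE4 was compared with APOE3 in the forebrains of paralyzed tau mice: 4 PS/E4H mice were set against 4 PS/E3H mice, which are 8 of the 21 mice of the series. Of the 55401 genes in the count table, 33677 had at least 1 count in these mice and 20332 passed the low-count filter and were tested. All 8 mice had the mouse Apoe gene replaced on both chromosomes by a human allele, APOE4 in PS/E4H and APOE3 in PS/E3H, and all were heterozygous for the PS19 transgene, which expresses human tau with the P301S mutation from the mouse prion promoter. They were killed when both hindlimbs were paralyzed, so age at death was set by disease and not by date, and the labels give no age for single mice. In the study's survival data PS/E4H mice reached paralysis at an earlier median age than PS/E3H mice. Age at death and APOE allele therefore cannot be told apart in the differences below. The parental mice used below for comparison, 3 E4H and 3 E3H mice without the transgene, were killed at 9 to 10 months. The replacement lines were kept on C57BL6 and the PS19 line on a B6/C3H background, and the tau mice came from a cross followed by a backcross, so mice of a group need not be alike outside the selected loci. The replicates are separate mice.

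APOE is the main lipid carrier secreted by astrocytes in the brain, where it delivers cholesterol and phospholipid to neurons and oligodendrocytes through receptors of the LDL receptor family. APOE4 differs from APOE3 in its binding of lipid and receptors, and is the common allele most strongly tied to the risk of Alzheimer's disease. PS19 mice deposit hyperphosphorylated tau in neurons of the brain and spinal cord, with gliosis, loss of neurons and at last paralysis.

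The libraries held 60883889 to 63751715 counts in PS/E4H and 61065315 to 72693566 in PS/E3H mice, with 7.88% to 9.25% and 7.99% to 8.67% from mitochondrial genes. The gene replaced in both groups, Apoe, kept 12.1, 16.1, 16.5 and 13.6 CPM (counts scaled to library size, with TMM normalization) in PS/E4H mice 1 to 4 and 11.1, 14.2, 9.83 and 12.5 CPM in PS/E3H mice 1 to 4, so reads counted on the mouse gene were few and overlapped between the groups; human APOE was not analysed here. Prnp, whose promoter drives the transgene, had 1498 to 1919 CPM in PS/E4H and 1390.4 to 1728 CPM in PS/E3H mice, above the 818 to 933 CPM of the 6 parental mice. Mouse Mapt, the tau gene, had 420.1 to 473 and 424 to 479.9 CPM in the tau groups.

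Sex-linked genes did not match the sex that the study's methods give for PS/E3H, which is male throughout, while for PS/E4H the methods give 2 females of 4. Xist, the RNA that silences an X chromosome in females, was at 294, 377, 417 and 283 CPM in PS/E3H mice, and at 2.65, 244, 268 and 2.61 CPM in PS/E4H mice 1 to 4. Ddx3y, a Y-linked RNA helicase, was at 0.112, 0.127, 0.112 and 0.0570 CPM in PS/E3H mice and 59.7, 0.231, 0.341 and 65.3 CPM in PS/E4H mice. By these values every PS/E3H mouse and PS/E4H mice 2 and 3 had Xist and almost no Ddx3y, and PS/E4H mice 1 and 4 the reverse, so among these 8 mice those with Ddx3y stood in PS/E4H only. The parental mice shared this imbalance, with Ddx3y at 0, 0.0796 and 57.1 CPM in E4H mice 1 to 3 and 0.0542 to 0.240 CPM in E3H mice. These values do not match the stated sex either, as the methods give 1 female among E4H and 0 among E3H mice. Many results are given also without PS/E4H mice 1 and 4, which leaves 2 PS/E4H mice against 4 PS/E3H mice. Where this value is not given, a result may still depend on these mice. Mouse PS/E3H_1 was the lowest of the 8 in many glial genes, with 968 CPM of the astrocyte filament gene Gfap against 1605 to 1913 CPM in the other PS/E3H mice and 1747 to 2482 CPM in PS/E4H mice.

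APOE4 tau mice differed from APOE3 tau mice in 4 genes that passed both limits, an adjusted p under 0.05 and a 2-fold difference, which is 0.0197% of the 20332 tested. Oscar, Gm15510 and Eps8l1, all from one stretch of chromosome 7, were higher in PS/E4H (0.0148% of genes tested), and Dctd, on chromosome 8, was lower (0.00492%). The p-values are from quasi-likelihood fits of edgeR, adjusted by the method of Benjamini and Hochberg, and no further gene passed the adjusted p without the fold limit. At an unadjusted p under 0.05 there were 1324 genes, 6.51% of those tested, 597 higher (2.94%) and 727 lower (3.58%) in PS/E4H. DESeq2 passed 35 genes at its adjusted p, 0.172% of those tested, among them all 4, and 13 of the 35 reached a fold change of 2 (0.0639%). On simulated counts DESeq2 passed 50 unchanged genes and edgeR 15, so genes that pass with DESeq2 alone are less certain.

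The promoters of the 4 genes are shown because these genes carry the comparison and 3 of them lie together. Each sequence is the 250 bases before a RefSeq start of the gene on GRCm38.p6 (the first start listed where there are several), 5′ to 3′ on the gene's strand, and all 4 genes had an entry. The starts used for Dctd and Eps8l1 lie inside the spans that GENCODE gives these genes. The Eps8l1 window ends at 4460696 and its GENCODE span begins at 4460674, so its GGGCGG match at base 242 falls within that span. Capitals mark matches, on either strand, to 4 motifs searched: TATAAA, the TATA box; CCAAT, bound by NF-Y; GGGCGG, bound by Sp1; and CACGTG, an E-box. Overlaps between motifs were allowed, and the motifs stand in 12.4%, 33.8%, 32.7% and 6.02% of the 32851 promoters of the table.
Oscar (chr7:3616158-3616407, minus strand): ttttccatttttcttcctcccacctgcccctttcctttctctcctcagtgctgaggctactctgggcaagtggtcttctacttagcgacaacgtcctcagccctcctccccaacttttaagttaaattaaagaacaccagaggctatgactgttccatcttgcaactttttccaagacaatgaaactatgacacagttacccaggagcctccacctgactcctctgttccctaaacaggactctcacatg
Gm15510 (chr7:5057117-5057366, minus strand): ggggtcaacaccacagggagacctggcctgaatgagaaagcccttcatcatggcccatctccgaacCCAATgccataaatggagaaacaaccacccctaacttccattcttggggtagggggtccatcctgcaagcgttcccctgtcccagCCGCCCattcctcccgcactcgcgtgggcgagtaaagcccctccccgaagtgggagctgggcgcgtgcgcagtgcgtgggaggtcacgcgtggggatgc
Eps8l1 (chr7:4460447-4460696, plus strand): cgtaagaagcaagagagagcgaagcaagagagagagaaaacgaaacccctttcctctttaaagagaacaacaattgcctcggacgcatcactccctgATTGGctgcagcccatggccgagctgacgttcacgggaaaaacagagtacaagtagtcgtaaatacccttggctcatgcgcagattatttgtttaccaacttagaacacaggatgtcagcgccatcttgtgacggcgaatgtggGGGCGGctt
Dctd (chr8:48109708-48109957, plus strand): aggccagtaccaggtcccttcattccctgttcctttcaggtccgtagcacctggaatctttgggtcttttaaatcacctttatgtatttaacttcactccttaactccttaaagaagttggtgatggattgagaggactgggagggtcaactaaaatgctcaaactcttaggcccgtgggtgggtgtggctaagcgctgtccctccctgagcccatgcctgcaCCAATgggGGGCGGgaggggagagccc

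These letters differed between the 3 neighbours. Oscar's window held none of the 4 motifs and 2 CpG dinucleotides, at 47.2% G and C, while Gm15510 and Eps8l1 each held 1 CCAAT and 1 GGGCGG match and 14 CpG dinucleotides, against a median of 6 over all promoters. Dctd also held 1 match to each of these 2 motifs, with 4 CpG dinucleotides. A match is a description of the letters and no evidence of binding.

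Oscar (ENSMUSG00000054594, chromosome 7, 3609813 to 3616157, minus strand, in GENCODE M21 on GRCm38) encodes an immunoglobulin-like receptor of myeloid cells and osteoclasts that signals with the adaptor Fcer1g. Its level was 1.37, 1.07, 1.10 and 1.34 CPM in PS/E4H mice 1 to 4 and 0.140, 0.0637, 0.0956 and 0.157 CPM in PS/E3H mice 1 to 4, from 85, 65, 68 and 86 counts in the former and 10, 4, 6 and 11 counts in the latter. Every PS/E4H mouse lay above every PS/E3H mouse, with means of 1.22 ± 0.156 CPM and 0.114 ± 0.0424 CPM (SD, n = 4 each). The log2 fold change was 3.38 (SE 0.37, adjusted p = 0.0204 by edgeR). In the parental mice, which share no animal with this comparison, Oscar was at 1.87, 1.99 and 1.82 CPM in E4H and 0.163, 0 and 0.104 CPM in E3H mice, again without overlap, and PS/E2H mice had 1.08 to 1.75 CPM, so PS/E3H and E3H were the low groups.

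Gm15510 (ENSMUSG00000086604, chromosome 7, 5046949 to 5057116, minus strand) is annotated as an antisense RNA of unknown role, and the kit of these libraries keeps strand, though how the counting used it is not given in the sources used here. PS/E4H mice had 1.66, 1.83, 1.15 and 1.74 CPM and PS/E3H mice 0.211, 0.159, 0.159 and 0.143 CPM, from 103, 111, 71 and 112 counts in PS/E4H and 15, 10, 10 and 10 in PS/E3H mice. The groups did not overlap, and the means were 1.597 ± 0.303 CPM and 0.168 ± 0.0295 CPM (SD, n = 4 each). Its log2 fold change of 3.23 (SE 0.31, adjusted p = 0.0106 by edgeR) stood beside 3.22 (edgeR adjusted p = 0.0203) between E4H and E3H mice.

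Eps8l1 (ENSMUSG00000006154, chromosome 7, 4460674 to 4480487, plus strand) encodes a relative of Eps8, an adaptor that links growth factor receptors to actin. The PS/E4H mice had 3.01, 5.47, 4.45 and 5.80 CPM and the PS/E3H mice 1.24, 1.07, 0.892 and 1.497 CPM. The lowest PS/E4H mouse, replicate 1, was still above the highest PS/E3H mouse, replicate 4. For Eps8l1 the log2 fold change was 1.99 (SE 0.25, adjusted p = 0.0405 by edgeR), against 2.87 (edgeR adjusted p = 0.000297) in parental mice. Whether the tau and parental differences were unequal was tested as an interaction, which gave -0.87 on the log2 scale (adjusted p = 0.9999 by edgeR, unadjusted p = 0.0271) and did not pass.

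Dctd (ENSMUSG00000031562, chromosome 8, 48099092 to 48153233, plus strand) encodes deoxycytidylate deaminase, which makes the dUMP that thymidylate synthase turns into dTMP. It was at 3.33, 3.03, 3.28 and 3.22 CPM in PS/E4H mice and 6.01, 7.44, 6.29 and 7.08 CPM in PS/E3H mice. The PS/E4H mice lay close together and below all PS/E3H mice, with means of 3.22 ± 0.131 CPM and 6.71 ± 0.667 CPM (SD, n = 4 each). Its log2 fold change was -1.06 (SE 0.14, adjusted p = 0.0405 by edgeR). Between E4H and E3H mice it was -1.11 (edgeR adjusted p = 0.0114), with 4.08, 3.91 and 3.47 CPM in E4H and 8.38, 8.90 and 7.53 CPM in E3H mice. PS/E2H mice had 5.495 to 8.04 CPM, so here the groups with APOE4 were the low ones.

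**Figure D1:**
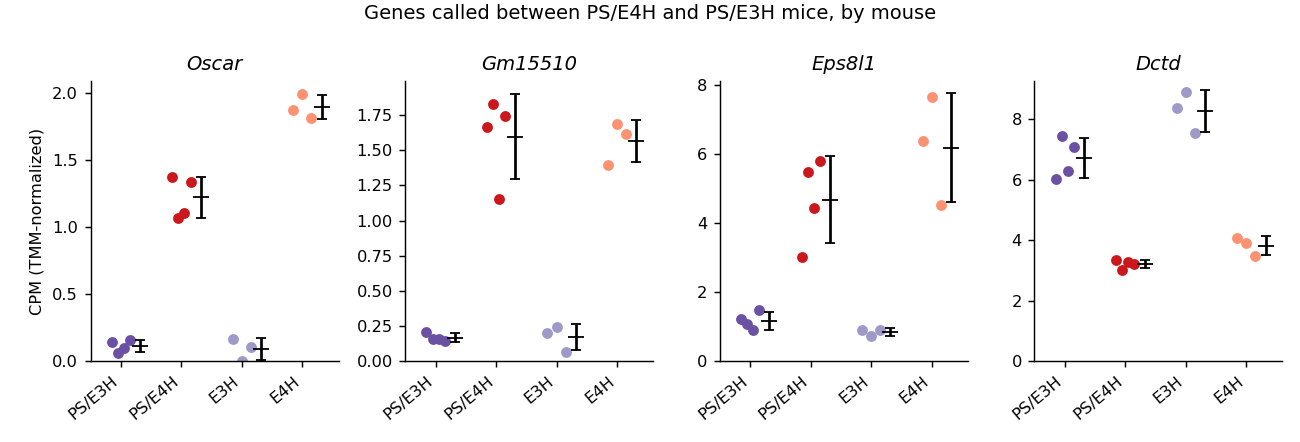
TMM-normalized CPM of the 4 genes called between PS/E4H and PS/E3H mice, on a linear axis from 0, with 1 point per mouse and, beside it, the mean and SD (4 mice in each tau group, 3 in each parental group). In each panel the PS/E4H and PS/E3H mice do not overlap, and E4H and E3H mice differ in the same direction; Dctd is the 1 gene that is lower with APOE4.

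The calls sat close to the threshold. Without 1 mouse at a time, Gm15510 passed the adjusted p in 4 of 8 fits (without PS/E3H mouse 1 or 3, or PS/E4H mouse 1 or 3), Oscar and Eps8l1 in 1 (without PS/E4H mouse 1) and Dctd in none, so leaving out any other mouse ended the call. The fold changes moved little, from 3.15 to 3.36 for Gm15510, 3.20 to 3.56 for Oscar, 1.87 to 2.16 for Eps8l1 and -1.12 to -1.01 for Dctd. Without the 2 PS/E4H mice with Ddx3y they were 3.13, 3.22, 2.08 and -1.09 in that order, with edgeR adjusted p from 0.0789 to 0.217. With all 21 mice in 1 model of 6 groups, all 4 passed, among 13 genes.

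The 3 called genes of chromosome 7 lay 14.6 to 16.1 Mb on the centromere side of Apoe, itself the site of the replacement. In the window from Oscar to Gm15510 (chromosome 7, 3609813 to 5057116), whose ends were set by these genes after their values were seen, 15 of 62 tested genes had an unadjusted p under 0.05. Over all other chromosomes 6.39% of genes did. By distance from Apoe on either side, the share was 3 of 121 genes within 5 Mb (2.48%), 15 of 166 at 5 to 10 Mb (9.04%), 12 of 145 at 10 to 15 Mb (8.28%), 17 of 85 at 15 to 20 Mb and 78 of 1056 beyond 20 Mb (7.39%), so the genes next to the replacement had the lowest share. The window held changes of both signs, and 31 of its 62 genes had a log2 fold change within 0.2 of 0. Of its 60 genes tested in parental mice, 11 had an unadjusted p under 0.05 there (6.67% of all genes tested in parental mice did), and all 11 of these did so in tau mice too, in the same direction.

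Among the neighbours, Tnnt1, the troponin T of slow skeletal muscle, was at 12.6, 8.81, 9.33 and 7.22 CPM in PS/E4H and 4.56, 5.32, 5.70 and 5.12 CPM in PS/E3H mice (log2 fold change 0.87, SE 0.17, unadjusted p = 0.000346 and adjusted p = 0.413 by edgeR). Rdh13, a retinol dehydrogenase of mitochondria, ran the other way, at 21.7, 23.2, 17.8 and 19.4 CPM in PS/E4H and 30.7, 26.3, 31.8 and 28.2 CPM in PS/E3H mice (log2 fold change -0.51, SE 0.10, unadjusted p = 0.000365 and adjusted p = 0.413 by edgeR). The groups did not overlap for either gene, and in parental mice the log2 fold changes were 0.95 (edgeR adjusted p = 0.303) and -0.76 (edgeR adjusted p = 0.00347). Gm15494, an antisense RNA whose span overlaps the start of Eps8l1, had 0, 8, 3 and 6 counts in PS/E4H and 39, 44, 71 and 53 in PS/E3H mice, so it was low where Eps8l1 was high. Its log2 fold change was -3.48 (adjusted p = 0.413 by edgeR), and -3.52 (edgeR adjusted p = 0.0297) in parental mice. On the other side of Apoe, the antisense RNA Arhgap33os had 31, 52, 21 and 30 counts in PS/E4H and 0, 4, 0 and 0 in PS/E3H mice, and Sbsn, which encodes suprabasin, a secreted protein of stratified epithelia, had 4.73, 2.92, 3.64 and 4.31 and 5.67, 10.9, 7.70 and 6.73 CPM (log2 fold change -0.995, SE 0.22, unadjusted p = 0.000921 and adjusted p = 0.660 by edgeR). Neither passed the adjustment, and the size of the fitted change of Arhgap33os depends on the prior count.

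**Figure D2:**
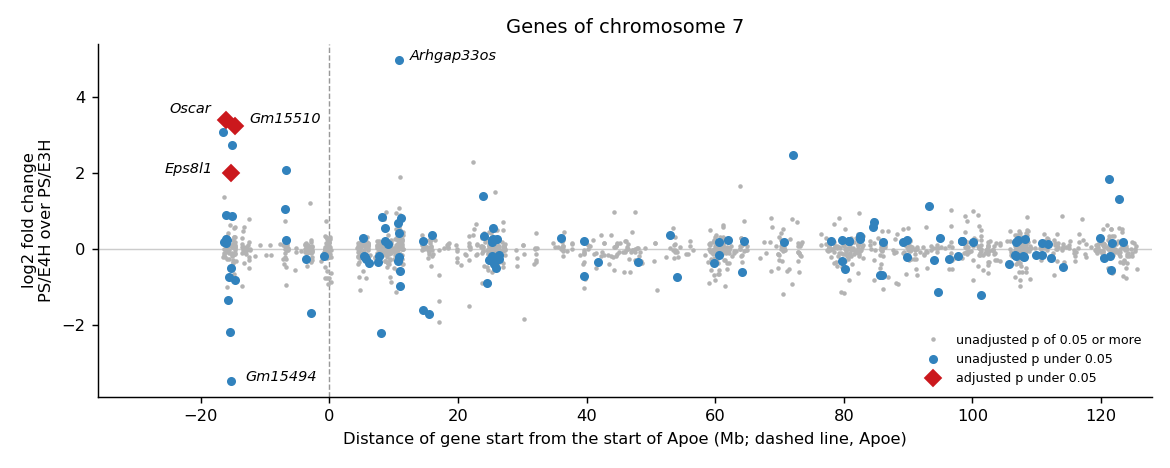
Log2 fold change of PS/E4H over PS/E3H for the 1573 tested genes of chromosome 7, against the distance of each gene's start from that of Apoe in Mb (dashed line); grey points have an unadjusted p of 0.05 or more, blue points one under 0.05 and red diamonds an adjusted p under 0.05 (edgeR). The 3 red genes stand 14.6 to 16.1 Mb from Apoe, in a group with changes of both signs.

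Among the 30 genes with the smallest p, the differences of the tau mice were mostly also present without the transgene. These 30, with unadjusted p up to 0.00102 by edgeR, were 11 genes higher and 19 lower in PS/E4H. Of these, 20 were protein coding and 8 lay on chromosome 7, which held 7.74% of all genes tested. The groups did not overlap for 27 of them, against 3.85% of all genes tested, and 27 had an adjusted p under 0.05 with DESeq2. As the 30 were picked by their p in the same 8 mice, neither count is separate support for them. In the E4H and E3H mice, which had no part in choosing them, 28 of 30 had a fold change in the same direction. The share of all genes tested that did so is not given here. Of the 28, 19 had an unadjusted p under 0.05, where 6.67% of all genes tested in parental mice did (edgeR). At an adjusted p under 0.05 there were 9, where 0.162% did (edgeR). The 30 include Ddx3y, whose imbalance between the groups the parental mice shared. The 9 were Gm15510, Oscar, Eps8l1, Gm15494 and Rdh13 on chromosome 7, and Dctd, Ulk2, Wdfy1 and Gm13601 elsewhere.

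**Figure D3:**
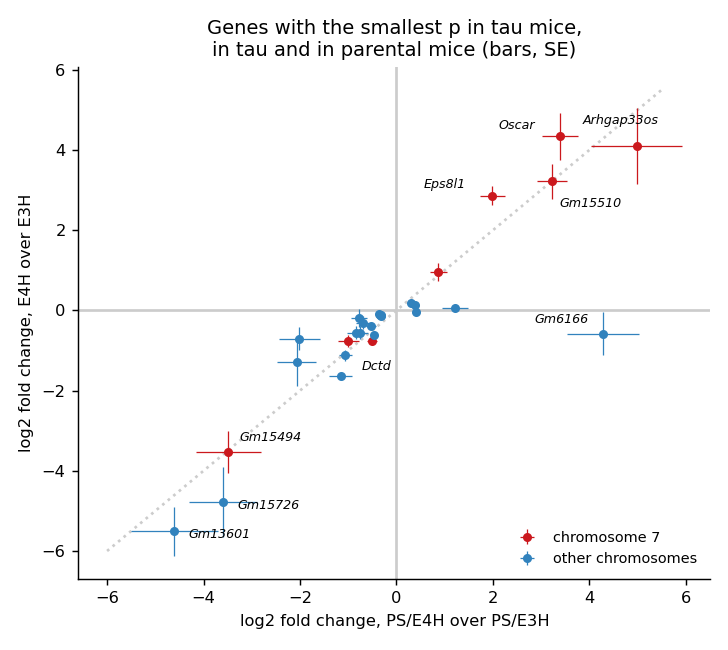
Log2 fold change with its SE in tau mice (PS/E4H over PS/E3H, horizontal) and in parental mice (E4H over E3H, vertical) for the genes with the smallest p in tau mice, with Ddx3y left out; the dotted line marks equal values. Most points lie near that line, and Gm6166 lies far from it, at 4.28 in tau and -0.58 in parental mice.

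Ulk2 and Wdfy1 were among those 30. Ulk2, a kinase that starts autophagosome formation, was at 96.7, 87.0, 74.6 and 77.2 CPM in PS/E4H and 112, 109, 117 and 122 CPM in PS/E3H mice, without overlap (log2 fold change -0.46, SE 0.0843, unadjusted p = 0.000191 and adjusted p = 0.413 by edgeR). The parental value was -0.60 (edgeR adjusted p = 0.00318). Wdfy1, a FYVE-domain protein of early endosomes, was at 17.7, 33.8, 38.2 and 16.7 CPM in PS/E4H and 51.9, 60.9, 64.4 and 58.4 CPM in PS/E3H mice (log2 fold change -1.15, SE 0.24, unadjusted p = 0.000552 and adjusted p = 0.535 by edgeR). PS/E4H mice 1 and 4 were at the level of the 3 E4H mice (16.1, 18.2 and 16.4 CPM), while mice 2 and 3, the 2 with Xist, stood between them and the PS/E3H mice. Without mice 1 and 4 the log2 fold change was -0.71. Wdfy3, an adaptor for aggregate clearance by autophagy, was lower by a smaller amount, -0.25 (unadjusted p = 0.00337 by edgeR). Over the 20 genes listed for autophagy initiation the median log2 fold change was 0.02. At an unadjusted p under 0.05 1 gene was higher and 3 lower (2.94% and 3.58% of all genes tested were).

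Among the other genes of the 30, Slc16a7, a monocarboxylate transporter of neurons, was at 5.03, 5.42, 5.12 and 5.13 CPM in PS/E4H mice and 31.7, 28.9, 5.67 and 20.4 CPM in PS/E3H mice (log2 fold change -2.07, SE 0.40, unadjusted p = 0.000295 and adjusted p = 0.413 by edgeR). PS/E3H mouse 3 stood just above the PS/E4H mice and far below the rest of its group, and the parental E3H mice were split in the same way, at 4.83, 29.6 and 4.94 CPM. Kcnt1, a sodium-activated potassium channel, was at 81.2, 73.4, 77.1 and 78.8 and 93.9, 100.1, 103 and 91.0 CPM in PS/E4H and PS/E3H mice (log2 fold change -0.33, unadjusted p = 0.000315 by edgeR). Atp2b4, a calcium pump of the plasma membrane, had 151, 139, 132 and 129.5 and 199, 166, 171 and 164 CPM (log2 fold change -0.35, unadjusted p = 0.000965 by edgeR). Ptprt, a receptor phosphatase, had 100.9, 90.0, 93.2 and 93.7 and 121, 114, 124 and 108 CPM (log2 fold change -0.31, unadjusted p = 0.000498 by edgeR), and Plxnd1, a semaphorin receptor of vessels and neurons, 46.8, 39.5, 48.6 and 36.2 and 65.8, 62.8, 52.3 and 63.4 CPM (log2 fold change -0.52, unadjusted p = 0.000414 by edgeR). All 4 were lower in each PS/E4H mouse than in each PS/E3H mouse, and in parental mice they were at -0.13, -0.11, -0.12 and -0.39.

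RNAs without a known protein and gene copies filled most of the remainder. The antisense RNA Gm13601 had 0, 0, 0 and 9 counts in PS/E4H mice and 68, 64, 50 and 62 in PS/E3H mice, and 2, 0 and 5 counts in E4H and 105, 83 and 144 in E3H mice, so no mouse with APOE4 had over 9 counts. Gm15726, an antisense RNA of the X chromosome, had 2, 2, 2 and 0 and 31, 18, 14 and 22 counts in PS/E4H and PS/E3H mice. Gm42047 was at 1.44, 1.45, 1.30 and 4.23 and 4.10, 9.35, 12.8 and 7.67 CPM, and 1700048O20Rik at 4.35, 7.21, 6.38 and 6.03 and 11.1, 8.17, 10.5 and 11.4 CPM, both lower in PS/E4H. The processed pseudogene Gm6166 was at 0.566, 13.3, 10.4 and 12.3 CPM in PS/E4H and 0.547, 0.478, 0.271 and 0.570 CPM in PS/E3H mice, and the pseudogene Gm4735 at 43.3, 126, 122 and 127 and 49.0, 43.7, 40.1 and 46.0 CPM. For both, PS/E4H mice 2 to 4 were high and mouse 1 was at the level of the PS/E3H mice, while all 6 parental mice were low, at 0.259 to 0.784 CPM for Gm6166. Rps6-ps4, a copy of a ribosomal protein gene, was at 28.4, 31.2, 29.0 and 29.6 and 20.98, 22.9, 20.9 and 24.2 CPM. Tmem254a, at 5.12, 4.68, 8.40 and 6.98 and 11.6, 13.2, 9.62 and 10.3 CPM, and Tmem254c, at 8.84, 6.87, 8.66 and 11.4 and 16.5, 12.5, 12.95 and 18.0 CPM, were lower in PS/E4H, and as these are near-identical copies, as are the pseudogenes of their parent genes, the division of reads between copies is uncertain.

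Genes of myelin stood slightly above their APOE3 levels in APOE4 tau mice, though no single gene passed the adjusted test of edgeR and 2 did with DESeq2. Of 27 listed genes of myelin and oligodendrocytes, all tested, 26 had a log2 fold change above 0, where 50.3% of all genes tested did. At an unadjusted p under 0.05 10 were above 0 and none below 0, where 2.94% and 3.58% of all genes tested were. None passed the adjusted p over all genes (edgeR). The median log2 fold change was 0.20, where the median over all genes tested was 0.00115. Mal, a proteolipid of compact myelin, was at 315, 320.3, 312 and 322 CPM in PS/E4H mice and 259, 247, 271 and 251 CPM in PS/E3H mice, narrow groups without overlap (log2 fold change 0.30, SE 0.0551, unadjusted p = 0.000209 and adjusted p = 0.413 by edgeR). Mobp, a basic protein of central myelin, had 1418, 1604, 1468 and 1188 and 1081, 1129, 1082 and 1060.0 CPM, also without overlap (log2 fold change 0.38, SE 0.0844, unadjusted p = 0.000907 and adjusted p = 0.660 by edgeR). By DESeq2 the adjusted p came to 0.000408 for Mal and 0.0241 for Mobp. The log2 fold change was 0.28 (unadjusted p = 0.0110 by edgeR) for Mbp, the major basic protein, and 0.31 (unadjusted p = 0.00450 by edgeR) for Fa2h, which makes the hydroxylated fatty acids of myelin galactolipids, both without overlap. It was 0.35 (unadjusted p = 0.00669 by edgeR) for Cldn11, the tight junction protein of myelin, and 0.26 (unadjusted p = 0.0154 by edgeR) for Cnp, a myelin phosphodiesterase, where the groups overlapped.

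In parental mice 25 of the 27 were also above 0 (49.3% of all genes tested were), with a median of 0.15. Without PS/E4H mice 1 and 4 the median in tau mice was 0.16 and 7 genes were above 0 at an unadjusted p under 0.05. Per mouse, the median deviation of the 27 genes from their mean over the 8 mice (log2 scale) was 0.23, 0.26, -0.12 and 0.03 in PS/E4H mice 1 to 4 and -0.21, -0.02, -0.08 and -0.04 in PS/E3H mice 1 to 4. PS/E4H mice 1 and 2 were the highest, PS/E3H mouse 1 the lowest, and PS/E4H mouse 3 lay within the PS/E3H range. The 6 oligodendrocyte markers summed to 7039 to 9127 CPM in PS/E4H and 6339 to 6764 CPM in PS/E3H mice, and in bulk tissue more cells of a type and more RNA per cell cannot be told apart. The 10 listed genes of oligodendrocyte precursors had a median of 0.01 and no member at an unadjusted p under 0.05.

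Genes of the extracellular matrix stood below their APOE3 levels, again with no single gene past the adjusted test of edgeR and 2 past that of DESeq2. All 26 listed collagen, laminin and other matrix genes had a log2 fold change below 0, where 50.3% of all genes tested were above 0. At an unadjusted p under 0.05 10 were below 0, where 3.58% of all genes tested were, and none passed an adjusted p under 0.05 (edgeR). The median was -0.37, and in parental mice -0.25, with all 26 again below 0. Without PS/E4H mice 1 and 4 it was -0.43, with 11 genes below 0 at an unadjusted p under 0.05. Col6a1, a chain of the collagen VI that surrounds cells and vessels, was at 23.8, 25.3, 18.8 and 27.7 CPM in PS/E4H and 31.7, 39.6, 43.0 and 40.4 CPM in PS/E3H mice (log2 fold change -0.70, SE 0.13, unadjusted p = 0.000210 and adjusted p = 0.413 by edgeR). The log2 fold change was -0.64 (unadjusted p = 0.00411 by edgeR) for its partner Col6a2, -0.62 (unadjusted p = 0.00120 by edgeR) for Cemip, which binds and breaks down hyaluronan, and -0.34 (unadjusted p = 0.00157 by edgeR) for Agrn, the heparan sulfate proteoglycan agrin. For these 4 the groups did not overlap. With DESeq2 the adjusted p was 0.000280 for Col6a1 and 0.0303 for Cemip. Per mouse the deviation of the list was 0.03, -0.12, -0.33 and -0.29 in PS/E4H and -0.10, 0.34, 0.08 and 0.35 in PS/E3H mice. Here PS/E3H mouse 1 fell below PS/E4H mouse 1, and without it the median was -0.49.

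The markers of pericytes and fibroblasts, cells that make much of this matrix, were Pdgfrb, Rgs5, Col1a1, Col1a2, Dcn and Lum. Col1a1, Col1a2, Dcn and Lum encode matrix proteins themselves, so their direction is no separate sign beside that of the list. All 6 had a log2 fold change below 0, with a median of -0.35 and 1 at an unadjusted p under 0.05, and they summed to 151 to 185 CPM in PS/E4H and 162 to 252 CPM in PS/E3H mice, with no marker at 0; their part in the result was not tested. The 6 endothelial markers had a median of -0.04 and the 20 genes of vessels and barrier -0.07, of which only Plxnd1 had an unadjusted p under 0.05.

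Ribosomal protein genes were nearly all slightly above their APOE3 levels in APOE4 tau mice, none of them past the adjusted test of edgeR or DESeq2. Of 83 genes of cytosolic ribosomal proteins found by name, 81 were tested and 79 of these were above 0, against 50.3% of all genes tested, and 36 at an unadjusted p under 0.05, against 2.94%, with a median log2 fold change of 0.21 (edgeR). Rps6, the small-subunit protein phosphorylated downstream of mTOR, had 314, 369, 328 and 317 CPM in PS/E4H and 262, 274, 283 and 299 CPM in PS/E3H mice, a small difference without overlap. Its log2 fold change was 0.24 (unadjusted p = 0.00558 by edgeR), beside 0.24 (unadjusted p = 0.00316 by edgeR) for Rps4x, 0.25 (unadjusted p = 0.00318 by edgeR) for Rpl6 and 0.52 (unadjusted p = 0.00275 by edgeR) for Rpl21. The median without each mouse in turn was 0.12 to 0.24, without PS/E4H mice 1 and 4 0.32, with 64 genes above 0 at an unadjusted p under 0.05, and in parental mice 0.06. Per mouse the deviation of the list was 0.01, 0.33, 0.09 and -0.00 in PS/E4H and -0.08, -0.12, -0.22 and 0.03 in PS/E3H mice, where PS/E4H mouse 2 stood highest, PS/E3H mouse 3 lowest, and PS/E3H mouse 4 above PS/E4H mice 1 and 4. Nuclear genes of oxidative phosphorylation had a median of 0.11, with 81 of 84 above 0 and 5 at an unadjusted p under 0.05, and the 13 mitochondrially encoded ones 0.09, with none at that p.

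Genes of axonal transport lay on the other side of 0. Of 24 genes of axonal transport and the cytoskeleton, all tested, 21 were below 0, where 50.3% of all genes tested were above 0. The median was -0.15, with 9 lower at an unadjusted p under 0.05, against 3.58% of all genes tested, and none higher at that p. Plec, plectin, which ties intermediate filaments to other structures, was at 85.2, 71.3, 75.0 and 69.3 CPM in PS/E4H and 103, 93.6, 92.8 and 98.0 CPM in PS/E3H mice (log2 fold change -0.37, SE 0.0726, unadjusted p = 0.000357 and adjusted p = 0.413 by edgeR). The log2 fold change was -0.36 (unadjusted p = 0.00219 by edgeR) for Dync1h1, the heavy chain of the dynein motor, -0.26 (unadjusted p = 0.00536 by edgeR) for Ank3, the anchor of the axon initial segment, and -0.20 (unadjusted p = 0.00888 by edgeR) for the kinesin Kif5c. The groups did not overlap for these 4. Without PS/E4H mice 1 and 4 the median of the list was -0.14, with 10 genes below 0 at an unadjusted p under 0.05. In parental mice it was -0.02, and the 36 genes of neurons and synapses had a median of -0.04 in tau mice, with 1 at an unadjusted p under 0.05.

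Transcript length moved with these lists. With the tested genes in 5 bins of equal size by their longest annotated transcript, the median log2 fold change fell from 0.08 in the shortest bin (up to 1478 bases) through 0.05, 0.02 and -0.01 to -0.07 in the longest (from 4819 bases). The longest bin minus the shortest, as a median deviation per mouse, was 0.05, -0.17, -0.04 and -0.07 in PS/E4H and 0.03, 0.06, 0.16 and -0.01 in PS/E3H mice, so mice 2 of PS/E4H and 3 of PS/E3H stood farthest apart and the groups overlapped. In parental mice the bins went from 0.03 to -0.02. With each gene set against the median of its own bin, the median of the ribosomal genes was 0.14, of the cytoskeletal genes -0.09, of the matrix genes -0.30, of the myelin genes 0.20 and of the nuclear genes of oxidative phosphorylation 0.06, a comparison added after the data were seen. Whether length has a part in the results for single genes was not tested.

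**Figure D4:**
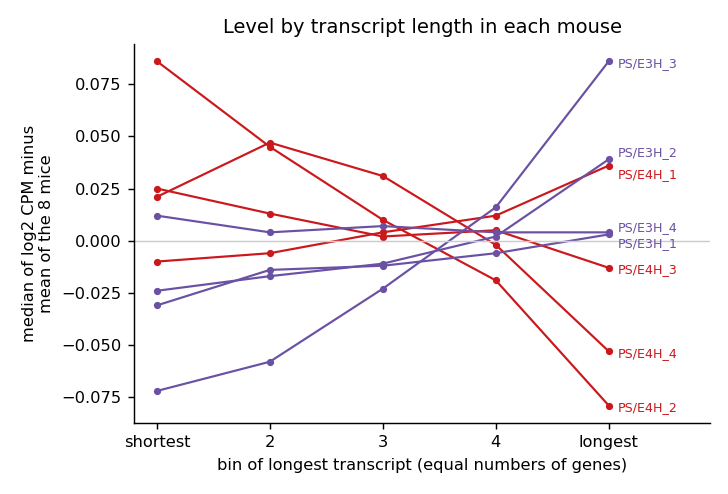
Median deviation of log2 CPM from the mean over the 8 mice, for tested genes in 5 bins by longest transcript, with 1 line per mouse (red, PS/E4H; purple, PS/E3H). PS/E4H_2 falls from 0.09 to -0.08 and PS/E3H_3 rises from -0.07 to 0.09, while PS/E4H_1 runs with the PS/E3H mice.

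Microglial genes stood somewhat above their APOE3 levels in APOE4 tau mice, where their parental medians lay below 0. Of 18 homeostatic microglial genes 15 were above 0 (50.3% of all genes tested were) and 5 of these had an unadjusted p under 0.05 (2.94% of all genes tested did), with a median of 0.19. For the 24 genes of disease-associated microglia the median was 0.13, with 1 at that p, and for the 54 plaque-induced genes 0.18, with 50 above 0 and 7 at that p. In parental mice the medians of these lists were -0.03, -0.08 and -0.07. None of their genes passed the adjusted p (edgeR). C1qa, a chain of the first complement component, was at 228, 183, 184 and 182 CPM in PS/E4H and 100.2, 164, 152 and 176 CPM in PS/E3H mice, without overlap (log2 fold change 0.39, SE 0.15, unadjusted p = 0.0257 and adjusted p = 0.759 by edgeR). Log2 fold changes were 0.41 (unadjusted p = 0.0258 by edgeR) for Ctss, a lysosomal protease, and 0.44 (unadjusted p = 0.0221 by edgeR) for the purine receptor P2ry13, where the groups overlapped. Without PS/E4H mice 1 and 4 the medians of the lists were 0.13, 0.02 and 0.08, and 0 homeostatic genes were above 0 and 2 below 0 at an unadjusted p under 0.05.

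Genes of interferon response varied widely among mice. All 24 type I interferon genes were above 0, where 50.3% of all genes tested were, with a median of 0.40. Of these, 1 had an unadjusted p under 0.05 and none passed the adjustment (edgeR). Their deviation per mouse was 0.36, 0.06, -0.44 and 0.67 in PS/E4H and -0.69, -0.21, -0.03 and 0.25 in PS/E3H mice, so PS/E4H mouse 3 was lower than 3 of the 4 PS/E3H mice, and mice 1 and 4, those with Ddx3y, were the highest. Without these 2 mice the median was 0.03. The 15 interferon-inducible GTPases had a median of 0.26, or -0.10 without these mice, and the 10 tested IFI200 genes 0.32, or 0.06. In parental mice the medians of these lists were -0.165 for type I interferon genes, -0.21 for GTPases and -0.12 for IFI200 genes. There 5 of 24, 1 of 15 and 3 of 10 genes were above 0 (49.3% of all genes tested were). Gbp10, one of the GTPases, was at 1.58, 1.10, 1.32 and 0.746 CPM in PS/E4H and 0.182, 0.223, 0.271 and 0.613 CPM in PS/E3H mice (log2 fold change 1.87, SE 0.43, unadjusted p = 0.00127 and adjusted p = 0.660 by edgeR), without overlap, and its parental log2 fold change was -0.05 (edgeR adjusted p = 0.998).

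Class II genes of the major histocompatibility complex had a median of 0.31 over 8 genes, and of -0.17 in parental mice. Cd74, the invariant chain, was at 52.3, 53.1, 72.1 and 33.3 CPM in PS/E4H and 22.5, 31.2, 31.9 and 41.7 CPM in PS/E3H mice (log2 fold change 0.72, SE 0.22, unadjusted p = 0.00724 and adjusted p = 0.758 by edgeR), and H2-Aa at 0.59 (unadjusted p = 0.0343 by edgeR). The 15 class I genes had a median of 0.12, with 13 above 0 and none at an unadjusted p under 0.05. Their deviation per mouse was 0.28, -0.006, -0.13 and 0.26 in PS/E4H and -0.56, 0.03, -0.03 and 0.255 in PS/E3H mice. Without PS/E4H mice 1 and 4, those with Ddx3y, the class I median was -0.03. In parental mice the class I median was -0.37, with 0 of 15 above 0 and 10 at an unadjusted p under 0.05 (49.3% and 6.67% of all genes tested). The 19 tested complement genes had a median of -0.11, or -0.13 in parental mice. Of these, 2 were higher in tau mice at an unadjusted p under 0.05, where 2.94% of all genes tested were. Mouse PS/E3H_1 was the lowest of the 8 in the class I, class II, interferon, disease-associated, plaque-induced and complement lists. Without it the medians were 0.10 for homeostatic microglia, 0.05 for disease-associated microglia, 0.08 for plaque-induced genes, 0.04 for class I, 0.12 for class II, 0.25 for interferon and -0.19 for complement genes. The 6 microglial markers summed to 631 to 754 CPM in PS/E4H and 474 to 675 CPM in PS/E3H mice, with none at 0, and their part in these results was not tested.

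**Figure D5:**
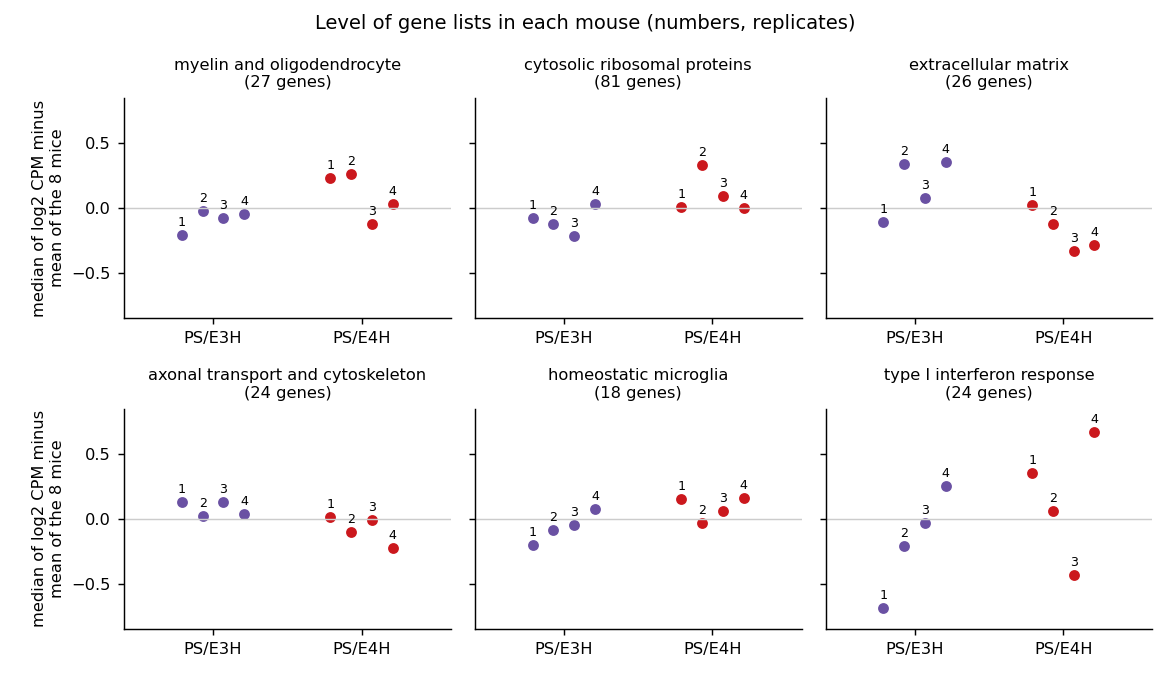
Level of 6 gene lists in each of the 8 tau mice, as the median over the tested genes of a list of log2 CPM (0.5 added) minus the gene's mean over the 8 mice; numbers are replicates. The groups separate for the cytoskeletal list, and overlap for the other 5; the interferon list spans -0.69 (PS/E3H_1) to 0.67 (PS/E4H_4).

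Serpina3n, a secreted serine protease inhibitor that reactive astrocytes make in large amounts, was at 554, 417, 426 and 262 CPM in PS/E4H mice and 72.4, 171, 197 and 299.6 CPM in PS/E3H mice. PS/E4H mouse 4 fell below PS/E3H mouse 4, and the difference did not pass the adjustment (log2 fold change 1.16, SE 0.35, unadjusted p = 0.00649 and adjusted p = 0.758 by edgeR). In parental mice it was 2.56 (adjusted p = 2.78e-07 by edgeR), and the interaction, tau minus parental difference, was -1.39 (adjusted p = 0.9999, unadjusted p = 0.00744 by edgeR). Gfap and Cxcl10 overlapped between the groups. Gfap was at 2482, 1886, 1806 and 1747 CPM in PS/E4H and 968, 1746, 1605 and 1913 CPM in PS/E3H mice (log2 fold change 0.34, SE 0.18, unadjusted p = 0.0918 and adjusted p = 0.780 by edgeR), and the chemokine Cxcl10 at 6.87, 3.95, 2.01 and 7.78 and 1.25, 1.70, 2.18 and 4.05 CPM (log2 fold change 1.16, unadjusted p = 0.0223 by edgeR). The 13 pan-reactive genes had a median of 0.07, which ran from -0.27 to 0.45 without 1 mouse at a time, the A1 list 0.17, the A2 list 0.03 and 16 homeostatic astrocyte genes 0.08, with 1 at an unadjusted p under 0.05 in the last. In parental mice these medians were -0.22, -0.21, -0.26 and 0.01. Without PS/E4H mice 1 and 4 the medians in tau mice were -0.25, 0.06, -0.12 and 0.12, in the same order.

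Of the other genes that the study names, Trem2, a lipid receptor of microglia, was at 55.2, 44.6, 39.5 and 49.7 CPM in PS/E4H and 31.4, 42.4, 39.7 and 45.3 CPM in PS/E3H mice, with overlap (log2 fold change 0.25, SE 0.13, unadjusted p = 0.0785 and adjusted p = 0.780 by edgeR). Treml2 was at 3.65, 1.499, 1.93 and 4.45 and 1.07, 2.48, 1.45 and 3.62 CPM, with overlap. Treml1 was tested and its adjusted p was 0.962 (edgeR), and Trem1, Trem3 and Treml4, at 0 to 0.372 CPM over the 8 mice, did not pass the low-count filter. Prl, the pituitary hormone prolactin, had 0, 153, 0 and 0 counts in PS/E4H mice and 0, 0, 0 and 0 in PS/E3H mice, so 1 mouse held all of its counts and it was not tested. Over a list of Trem genes, adaptors and Oscar, which is not a Trem gene, 7 of 10 were tested and the median was 0.22. Oscar alone passed, so no Trem gene or adaptor of the list did.

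Genes that handle APOE and its lipid showed small shifts. Of 26 receptors and lipid transport genes, 1 was higher and 3 lower at an unadjusted p under 0.05 (2.94% and 3.58% of all genes tested were). The median was -0.07 and none passed the adjustment (edgeR). Clu, clusterin, the other abundant apolipoprotein of astrocytes, was at 1631, 1688, 1728 and 1652 CPM in PS/E4H and 1147, 1443, 1364 and 1526 CPM in PS/E3H mice, without overlap (log2 fold change 0.28, SE 0.0825, unadjusted p = 0.00538 and adjusted p = 0.758 by edgeR). Abca7, a phospholipid exporter of microglia and neurons, was lower without overlap, at 12.96, 12.8, 13.2 and 11.3 and 16.0, 18.9, 15.6 and 15.2 CPM (log2 fold change -0.39, SE 0.10, unadjusted p = 0.00273 and adjusted p = 0.758 by edgeR). Lrp1, a large APOE receptor, had a log2 fold change of -0.34 (unadjusted p = 0.0149 by edgeR). In parental mice the log2 fold changes of these 3 were -0.00471, 0.00367 and -0.17. Of 24 cholesterol synthesis genes 20 were below 0 and 4 above 0, where 50.3% of all genes tested were above 0. At an unadjusted p under 0.05 4 were lower and 1 higher (3.58% and 2.94% of all genes tested were), and the median was -0.13. Without PS/E3H mouse 1 this median was -0.05. The deviation per mouse was -0.13, 0.08, -0.18 and 0.01 in PS/E4H and 0.23, 0.195, -0.04 and -0.12 in PS/E3H mice, so the groups overlapped. Hsd17b7, a late sterol enzyme, had the smallest p of the list, at 18.0, 19.1, 16.7 and 19.3 and 24.8, 23.4, 22.7 and 19.9 CPM in PS/E4H and PS/E3H mice (log2 fold change -0.32, unadjusted p = 0.00582 by edgeR).

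Among genes of its pathway, Dctd alone passed. Of 33 genes of pyrimidine metabolism, all tested, 1 passed the adjusted p (edgeR) and 3 had an unadjusted p under 0.05 (6.51% of all genes tested did). The median was 0.01. Tymp, thymidine phosphorylase, which breaks down thymidine, was at 5.12, 4.09, 4.03 and 3.75 CPM in PS/E4H and 2.77, 2.20, 3.07 and 2.91 CPM in PS/E3H mice, higher without overlap (log2 fold change 0.63, SE 0.17, unadjusted p = 0.00418 and adjusted p = 0.758 by edgeR), with a log2 fold change of 0.50 in parental mice. Pdk4, a kinase that holds back pyruvate dehydrogenase in fasting, had the smallest p of 15 genes of glucocorticoid and fasting response (log2 fold change 0.57, unadjusted p = 0.00111 by edgeR), and the list had a median of 0.11. Ighg2c, an immunoglobulin heavy chain constant region gene, had 28, 44, 9 and 169 counts in PS/E4H and 269, 503, 204 and 341 in PS/E3H mice (log2 fold change -2.33, SE 0.66, unadjusted p = 0.00464 and adjusted p = 0.758 by edgeR), without overlap, and 0, 0 and 0 counts in E4H and 327, 228 and 275 in E3H mice. The other 8 tested immunoglobulin genes had no unadjusted p under 0.05.

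Genes of ER stress and the integrated stress response stood slightly above their APOE3 levels in APOE4 tau mice. Of 18 listed genes 17 were above 0, against 50.3% of all genes tested, and 3 of these had an unadjusted p under 0.05, against 2.94%, with a median log2 fold change of 0.13, or 0.12 to 0.13 without 1 mouse at a time and 0.10 without PS/E4H mice 1 and 4. The deviation per mouse was 0.04, 0.05, 0.04 and 0.06 in PS/E4H mice and -0.07, -0.11, -0.05 and 0.00 in PS/E3H mice, so the groups did not overlap. Psat1, a serine synthesis enzyme that Atf4 switches on, was at 204, 216, 211 and 197 CPM in PS/E4H and 170.4, 158, 190.2 and 189 CPM in PS/E3H mice (log2 fold change 0.22, SE 0.0718, unadjusted p = 0.0103 and adjusted p = 0.758 by edgeR), and Dnajb9, a co-chaperone of the ER lumen, at 58.9, 61.5, 58.4 and 59.2 and 54.1, 51.5, 52.5 and 57.6 CPM (log2 fold change 0.14, SE 0.0606, unadjusted p = 0.0439 and adjusted p = 0.759 by edgeR). Both were higher in each PS/E4H mouse than in each PS/E3H mouse, and the parental median of the list was 0.06.

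In the remaining lists few genes had an unadjusted p under 0.05. The medians were, for 18 p53 and senescence genes, 0.12 (1 at that p), for 18 immediate early genes 0.12 (none at that p, but 0.50 with 6 genes above 0 at that p without PS/E3H mouse 1) and for the 20 tested histone lysine demethylases -0.06 (3 lower at that p). Over all genes tested 6.51% had that p. Without PS/E4H mice 1 and 4 the demethylase median was -0.09, with 0 genes lower at that p, and the immediate early median was -0.06. The immediate early median was -0.35 in parental mice, with 1 of 18 above 0 and 7 at that p (49.3% and 6.67% of all genes tested there). Of 6 listed Y-linked and X-inactivation genes, 2 were tested, and Ddx3y had an unadjusted p of 0.000870 by edgeR. In lists of 2 to 6 tested markers, other cells had medians of -0.07 for neurons, 0.08 for astrocytes, 0.38 for choroid plexus, -0.10 for T cells, -0.25 for B and plasma cells, 0.09 for red blood cells and -0.20 for pituitary. Several of these rest on single mice. Without PS/E3H mouse 4 the median was 1.09 for red blood cells, and without PS/E3H mouse 2 it was -0.14. Leaving out PS/E4H mice 1 and 4 gave -0.69 for red blood cells, -0.78 for B and plasma cells and -0.52 for T cells. Without PS/E3H mouse 2 it was 0.50 for B and plasma cells and 0.20 for pituitary, and without PS/E4H mouse 1 -0.70 and -0.32. For T cells it ran from -0.32 to 0.10 without 1 mouse, above 0 without PS/E3H mouse 4, and for choroid plexus from 0.11 to 0.58. With all 8 mice no marker of these lists had an unadjusted p under 0.05, and the choroid plexus markers summed to 429.6 to 1224 CPM in PS/E4H and 418 to 709 CPM in PS/E3H mice.

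Whether the APOE4 difference was unequal with and without tau was tested as an interaction over the 14 PS/E4H, PS/E3H, E4H and E3H mice. Of 22212 genes, 0 passed an adjusted p under 0.05 (edgeR), and 847 (3.81%) had an unadjusted p under 0.05. The 5 genes with the smallest p were Gm21887, Ms4a4a, Gm47283, Gm20186 and Gm6166. Gm21887 was at 1.89, 2.04, 0.244 and 2.83 CPM in PS/E4H and 7.47, 5.59, 4.97 and 6.60 CPM in PS/E3H mice, against 0.208, 0.292 and 0.323 CPM in E4H and 24.5, 16.6 and 13.2 CPM in E3H mice. Its level was lower with APOE4 in both settings, and the fitted difference was smaller in tau mice (interaction 4.22, adjusted p = 0.427 by edgeR). Gm47283 had 202, 139, 16 and 260 counts in PS/E4H, 545, 747, 401 and 612 in PS/E3H, 30, 16 and 28 in E4H and 2062, 1207 and 1301 in E3H mice. Gm20186 had 67, 33, 2 and 59 counts in PS/E4H, 125, 172, 131 and 137 in PS/E3H, 0, 1 and 0 in E4H and 115, 97 and 114 in E3H mice. Ms4a4a, a membrane protein of microglia and macrophages, had 50, 35, 42 and 39 counts in PS/E4H, 48, 23, 41 and 96 in PS/E3H, 0, 0 and 0 in E4H and 11, 10 and 11 in E3H mice, and its interaction adjusted p was 0.526 (edgeR).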

How the data were processed

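The authors sequenced stranded poly(A) RNA from mouse forebrain, trimmed reads with cutadapt, aligned them to GRCm38.p5 with HISAT2 and quantified genes with StringTie; the versions, and how counts were derived, are not given in the sources used here. The deposited count table holds raw read counts per gene. The deposited FPKM table holds the authors' fragment counts scaled to gene length and library size, used only in an alternative with limma 3.58.1 on log2(FPKM + 1) and log2(FPKM + 0.1). Gene names and positions came from GENCODE M21 (55141 of 55401 genes matched) and promoters from RefSeq.

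Counts of the 8 mice were filtered with filterByExpr (minimum count 10), normalized by TMM and tested with edgeR 4.0.16 (glmQLFit and glmQLFTest, R 4.3.3), with Benjamini-Hochberg adjustment over all genes tested. The limits for a call were those of the study, an adjusted p under 0.05 and a 2-fold difference. Alternatives were DESeq2 1.42.0, which the study used, RLE normalization, no count filter or one at 50 counts, all 6 groups in 1 fit, the replicate number as a block, log2 CPM of Xist as a covariate, Y-linked genes and Xist left out, each mouse left out and, added after the data were seen, PS/E4H mice with Ddx3y left out. Figures were drawn with matplotlib 3.10.9. For 1 value in 4 against 4 mice an exact permutation test cannot give a p under 0.0286, so p-values come from the fit over all genes. Counts of different replicates differed by more than sampling noise in every group. The totals given for each group bound the precision at low counts, and the SE of each gene holds both counting error and spread between mice.

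The named genes are the 30 with the smallest p, those the study names for this comparison or the Trem family, checks, up to 4 with the smallest p from each list, and the 5 with the smallest interaction p. The members, the 34 gene lists and the 11 marker lists were chosen with earlier results of these data known, and no set test was run. Some members of these lists are not reported singly here. The level of a list in a mouse is the median over its tested genes of log2(CPM + 0.5) minus the gene's mean over the 8 mice. The fits were tested on simulated counts for the 20332 genes, of which 200 were changed by known folds. Of 50 genes changed 2-fold, edgeR recovered 37 and DESeq2 41. Among unchanged genes, 15 passed the adjusted p with edgeR and 50 with DESeq2.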

Additional observations from a re-analysis of the deposited data

Results flagged for a closer look

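Of 144 groups of 4 mice examined, 8 held a mouse far from the other 3. Chance alone flags about 1 in 20, so this count is near what chance gives. The measure is the gap to the nearest other mouse as a share of the group's whole range. Gm4735 was low in PS/E4H mouse 1, at 43.3 CPM against 122 to 127 CPM in the others (share 0.938). Gm42047 was high in PS/E4H mouse 4, at 4.23 CPM against 1.30 to 1.45 CPM (0.949), and C1qa in PS/E4H mouse 1, at 228 CPM against 182 to 184 CPM (0.951). Abca7 was low in PS/E4H mouse 4, at 11.3 CPM against 12.8 to 13.2 CPM (0.835).

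The others rest on few counts. Prl was present in PS/E4H mouse 2 alone, at 2.52 CPM (1.0). Gm13601 was at 0.140 CPM in PS/E4H mouse 4 and at 0 in the other 3 (1.0), Arhgap33os at 0.0637 CPM in PS/E3H mouse 2 and at 0 in the other 3 (1.0), and Gm15726 at 0 in PS/E4H mouse 4 and at 0.0323 to 0.0330 CPM in the other 3 (0.981).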

How the results depend on the processing

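The 4 genes called rest on the test and on single mice. DESeq2 called 13 (35 without the fold limit), all 6 groups in 1 fit 10 (13), limma on log2(FPKM + 1) 2, edgeR with no count filter 2 (2) and with Xist as a covariate 1 (1). Leaving out 1 mouse gave 0 to 6, with or without the fold limit: 0 without PS/E3H mouse 2 or 4 or PS/E4H mouse 2 or 4, 1 without PS/E3H mouse 1 or PS/E4H mouse 3, 2 without PS/E3H mouse 3 and 6 without PS/E4H mouse 1. Without both PS/E4H mice with Ddx3y there were 4 calls, of which 0 were among the main 4. In the parental comparison the 21 genes called became 36 with DESeq2, 13 with no count filter and 13 to 17 without 1 mouse. The interaction called 0, and 0 to 3 without 1 mouse, with 3 without PS/E4H mouse 1 or 3 and 1 without E4H mouse 1 or 3. The cause was not tested in any of these.

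Same-numbered mice did not deviate together, with correlations of -0.183, 0.0302, -0.0318 and -0.0267 in tau and -0.0015, -0.0822 and -0.00116 in parental mice, so the numbers are not a pairing. With the replicate block 0 genes were called in tau mice (0 without the fold limit) and 12 in parental mice.

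Of 1271 alternative values for 71 named genes, 1177 kept their direction and their side of the threshold, 44 lost and 44 gained an adjusted p under 0.05 and 6 changed sign. The sign changed for Treml2, to -0.43 with the Xist covariate and -0.33 without the mice with Ddx3y, for Xist, to 0.0669 with itself as covariate, for Mapt, between -0.0520 and 0.0133 without 1 mouse and above 0 without PS/E3H mouse 1 or PS/E4H mouse 2, and for Ms4a4a, between -0.43 and 0.23 without 1 mouse and above 0 without PS/E3H mouse 4. Of 855 list medians 832 moved by less than the spread between mice. The alternative without libraries lacking Ddx3y was not run, because it leaves no PS/E3H mouse. Genes under about 10 counts a mouse, such as the antisense RNAs, have fold changes that depend on the prior count.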
